A study of Mus musculus with 12 samples.

Results

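DNA replication and S-phase genes were followed in Neuro-2a cells, a mouse neuroblastoma line, after knockdown of Rbmx or of Rbmxl1. The set holds 50 genes, all of them among the 17569 genes that passed the filter on low counts, out of 55401 gene identifiers in the counts. It was assembled from known roles in licensing, fork progression, nucleotide supply and E2F-driven transcription, and its genes were chosen by measured values as well: the changes over scramble in both knockdowns and the difference between replicates 1 and 2 and replicates 3 and 4. Those values are therefore given as a description and support nothing. Rbmx, on the X chromosome, encodes an RNA-binding protein of the hnRNP G family, and Rbmxl1 is a retrocopy of it.

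The groups were scramble, Rbmx knockdown and Rbmxl1 knockdown, with 4 libraries in each, numbered as biological replicates 1 to 4. In all groups, a well of cells received 1 µg of a GFP plasmid together with 3 µg of miR30-based microRNA plasmid driven by the CAG promoter. Controls carried the scramble sequence alone, Rbmx knockdown cells a mix of 3 plasmids aimed at Rbmx, and Rbmxl1 knockdown cells a mix of 2 aimed at Rbmxl1. Sorting of GFP-positive cells took place 48 hours after transfection, so the model is a transient knockdown in 1 cell line, and GFP reports uptake of its own plasmid. Ribosomal RNA was depleted from total RNA before stranded libraries were made. What a replicate number stands for, such as a day or a passage, is not given in the labels.

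Before S phase, the origin recognition complex, Cdc6 and Cdt1 load the Mcm2-7 helicase onto DNA, which licenses an origin. Cdc45 and the GINS complex then turn the helicase on, primase and polymerase alpha start each strand, and polymerases delta and epsilon extend it behind the clamp Pcna. E2F transcription factors, released when cyclin and Cdk activity rises in G1, drive many of these genes, and dividing tumour lines such as Neuro-2a express them at high levels.

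Each library held 43.1 to 52.2 M reads in genes. Values are CPM, the reads of a gene per M reads in genes, with library sizes adjusted by TMM (trimmed mean of M-values). The targeted genes matched their labels: Rbmx lay at 57.6 to 73.3 CPM in scramble and 22.2 to 32.6 CPM in Rbmx knockdown, and Rbmxl1 at 31.3 to 36.7 CPM in scramble and 12.3 to 16.7 CPM in Rbmxl1 knockdown. In Rbmxl1 knockdown Rbmx lay at 81.9 to 90 CPM, above all scramble libraries, and in Rbmx knockdown Rbmxl1 lay at 34.2 to 38.3 CPM, overlapping scramble. The labelled cell type was checked with markers: 13 of 14 neuroblastoma and neuronal markers passed the filter, with a summed level of 1950 to 2720 CPM, while Col3a1, Cd3e, Itgam, Epcam and Krt18, markers of fibroblasts, leukocytes and epithelium, had no count in any library. All summed leukocyte markers came to 0.453 to 1.52 CPM and epithelial markers to 0.0864 to 0.46 CPM. Of 7 fibroblast markers, Pdgfra and Pdgfrb passed the filter, and the list summed to 25.6 to 45.8 CPM.

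In scramble cells the replication genes were abundant. Per kilobase of exon, their median level was 16.9 CPM, against 3.79 CPM over all genes tested. The licensing factor Cdt1 stood first at 111 CPM per kb (97.4 to 125 over 4 libraries), followed by Uhrf1, which reads hemimethylated DNA for the maintenance methyltransferase, at 70.5 (58.7 to 82.6) and the sliding clamp Pcna at 64.3 CPM per kb (61.2 to 67.3). The ranges of Uhrf1 and Pcna overlapped, so their order was within their spread. Mcm7 at 50.6 CPM per kb and Mcm6 at 43 came next, and their ranges met as well (47.5 to 53.7 and 34.6 to 50.1). At the low end were Gins3, a GINS subunit, at 2.95 CPM per kb, Orc1, the largest origin recognition subunit, at 2.99, and Pola1, the catalytic subunit of polymerase alpha, at 3.46. The ranges of these 3 genes also overlapped (2.22 to 3.8, 2.43 to 3.58 and 3.12 to 4.06 CPM per kb).

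Promoter windows from RefSeq on GRCm38.p6, running from 250 bases before to 50 bases after the start site, were at hand for 41 of the 50 genes. A search on both strands for the E2F site words TTTCCCGC, TTTCGCGC, TTTGCCGC and TTTGGCGC, which can overlap each other on opposite strands, found at least 1 word in 18 of these 41 genes (43.9%), counting a gene with several RefSeq start sites once. The share was 2.6% of 27025 genes with a window and 4.7% of 10656 tested genes. With the first T left off, 26 genes held a word (63.4%, against 10.9% and 19.4%). E2F-driven genes were sought when the set was assembled, so the excess describes how it was made. CCAAT, the word of the factor NF-Y, was found in 61.0% of the 41 genes, against 41.1% of all and 43.1% of tested genes. TTTGAA, the word of the cell cycle homology region known from genes of late cell cycle phases, was in 14.6%, against 20.2% and 14.2%.

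The following stretches show what such words look like in 5 of these promoters: those of genes with a word that came first by p in the Rbmx knockdown contrast and whose stretch overlapped no annotated exon. Capitals mark the E2F words, which lie upstream of the RefSeq start site of their window. The Cdc6 and Uhrf1 stretches lie within the annotated gene, and the Uhrf1 window at the gene start holds no E2F word. Each stretch is written 5′ to 3′ on the strand of its gene, with GRCm38.p6 coordinates.
Mcm5, chr8:75109326-75109397, plus strand: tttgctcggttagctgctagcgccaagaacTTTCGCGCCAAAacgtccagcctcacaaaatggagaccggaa
Mcm6, chr1:128359715-128359845, minus strand: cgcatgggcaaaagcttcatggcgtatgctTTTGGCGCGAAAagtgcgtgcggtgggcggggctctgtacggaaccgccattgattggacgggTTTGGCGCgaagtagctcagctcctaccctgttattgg
Cdc6, chr11:98907983-98908050, plus strand: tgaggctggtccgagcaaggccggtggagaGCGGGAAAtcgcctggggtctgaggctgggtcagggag
Pola1, chrX:93632256-93632323, minus strand: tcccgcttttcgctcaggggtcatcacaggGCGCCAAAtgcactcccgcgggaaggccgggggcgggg
Uhrf1, chr17:56304098-56304165, plus strand: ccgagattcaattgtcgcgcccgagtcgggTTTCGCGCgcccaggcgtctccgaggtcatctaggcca
In Mcm5 the capitals hold 2 words that overlap on opposite strands, TTTCGCGC read forward and TTTGGCGC read on the other strand. Mcm6 has the same kind of pair and a further TTTGGCGC closer to the start site. Cdc6 carries TTTCCCGC and Pola1 TTTGGCGC, each on the strand opposite to the gene, while Uhrf1 carries TTTCGCGC on its own strand. A match describes letters, not binding.

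**Figure D1:**
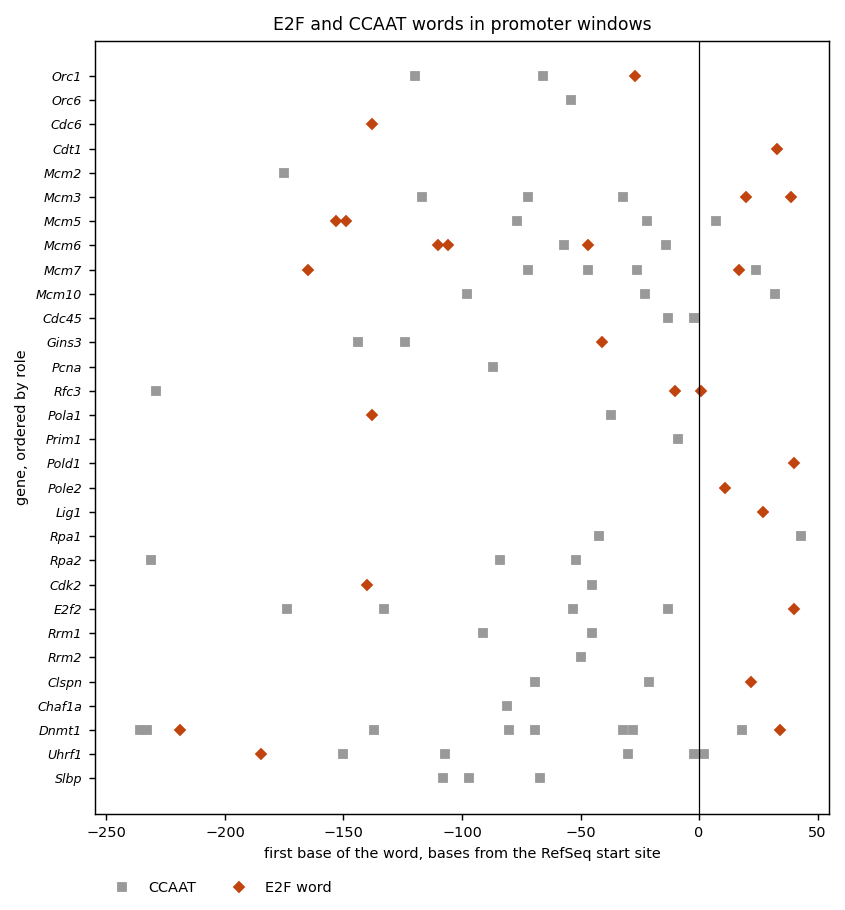
Positions of E2F words (red diamonds) and CCAAT (grey squares) in the promoter windows of the replication genes that hold either, with the distance of the first base of each word from the RefSeq start site on the x axis and genes by role on the y axis. E2F words lie on both sides of the start site, and 6 genes have 2 or more of them in 1 window (words from all windows of a gene share its row).

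The most marked pattern among these genes ran across replicate numbers and not across knockdowns. Of the 50 genes, 48 had a positive log2 difference between replicates 3 and 4 and replicates 1 and 2, and the median difference was 0.21, against 0.03 over all genes tested, of which 53.1% were positive. In 20 genes (40%) the 6 libraries of replicates 3 and 4 all lay above the 6 libraries of replicates 1 and 2, and in 0 genes did they all lie below. Over all genes tested, 9.4% lay wholly above and 10.6% wholly below. Since the set was chosen with this difference known, the counts carry no test. In bulk RNA, a smaller share of cells in S phase and less of these transcripts per cell cannot be told apart.

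The licensing genes stood out by role: 8 of 10 were separated, with a median difference of 0.49. Cdc6, the loader ATPase, had a lowest, median and highest value of 38.6, 43.6 and 48.2 CPM in replicates 1 and 2, and 64.2, 66.1 and 71.4 CPM in replicates 3 and 4. The gap between the replicate numbers was wider than the range within either, and the log2 difference was 0.62 ± 0.05 (SE). Orc1 (0.51 ± 0.09) and Orc6 (0.51 ± 0.06), subunits of the origin recognition complex, were separated too. Orc1 came close to overlap, with a highest value of 11 CPM in replicates 1 and 2 and a lowest of 11.5 CPM in replicates 3 and 4.

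Within the Mcm2-7 helicase ring, 5 of 6 subunits were separated. Mcm2 had 210, 234 and 247 CPM (lowest, median, highest) in replicates 1 and 2 and 314, 324 and 353 CPM in replicates 3 and 4, a log2 difference of 0.50 ± 0.04. The differences of Mcm5 (0.50 ± 0.05), Mcm4 (0.47 ± 0.04), Mcm3 (0.35 ± 0.05) and Mcm6 (0.34 ± 0.05) were of like size. Mcm7 was the exception, at 0.07 ± 0.05, with 184, 213 and 236 CPM against 212, 218 and 238 CPM. Its exons overlap those of Cops6 and Ap4m1 on the other strand and of the microRNA genes Mir25 and Mir93 on its own. Cdt1 overlapped as well, at 292 to 368 CPM in replicates 1 and 2 and 294 to 394 CPM in replicates 3 and 4 (0.11 ± 0.07).

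Among the helicase activators, Cdc45 (0.34 ± 0.05), Mcm10 (0.32 ± 0.05), Gins1 (0.30 ± 0.07) and Gins2 (0.26 ± 0.05) were separated, and Gins3 (0.31 ± 0.09) and Gins4 (0.11 ± 0.05) were not. Of the 12 genes of the clamp, the clamp loader and the polymerases, only 2 were: Pole2, the second subunit of polymerase epsilon, at 18.3, 22.2 and 23.5 CPM against 29.1, 32 and 39.2 CPM (0.61 ± 0.06), and Pold1, the catalytic subunit of polymerase delta (0.34 ± 0.05). Pcna itself had nearly the same range on both sides, 139 to 161 CPM and 140 to 162 CPM (0.04 ± 0.05). The 4 lagging-strand and single-strand binding genes, Fen1, Lig1, Rpa1 and Rpa2, overlapped with differences of 0.15 to 0.25.

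The largest differences belonged to a repair enzyme and a fork protection factor. Ung, which removes uracil from DNA, had 14.4, 16.7 and 19.7 CPM in replicates 1 and 2 and 39.4, 43.9 and 46.8 CPM in replicates 3 and 4, a 2.58-fold difference (log2 1.37 ± 0.06). Timeless, which with Tipin holds the fork together, had 37.7, 40.2 and 40.8 CPM against 71.9, 74.3 and 77.5 CPM (log2 0.91 ± 0.04). Each gene formed 2 tight bands that cut across all 3 groups. Tipin, the partner of Timeless, differed by 0.18 ± 0.05 with overlap, and Clspn, the checkpoint adaptor at the fork, by 0.17 ± 0.05 without it.

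The nucleotide supply genes differed among themselves. Rrm1 (−0.02 ± 0.05) and Rrm2 (0.05 ± 0.06), the subunits of ribonucleotide reductase, and thymidine kinase Tk1 (0.06 ± 0.07) overlapped, and thymidylate synthase Tyms (0.34 ± 0.06) overlapped through 1 Rbmxl1 knockdown library, replicate 2, at 65.7 CPM. In the G1/S control genes, E2f1 was separated (0.17 ± 0.05), and Ccne1, Ccne2, Cdk2 and E2f2 were not (0.06 to 0.13). Behind the fork, the maintenance methyltransferase Dnmt1 (0.23 ± 0.05) and Uhrf1 (0.30 ± 0.05) were separated, and the chromatin assembly subunits Chaf1a and Chaf1b and the histone mRNA binding protein Slbp (−0.04 ± 0.05) were not. Genes with an E2F word in the window were separated in 10 of 18 cases, with a median difference of 0.26, and genes without one in 7 of 23 cases, with a median of 0.22. Of the 9 genes that had no window, 3 were separated, with a median of 0.17. Over all genes tested, 9.4% lay wholly above. Whether the word goes with the difference was not tested.

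**Figure D2:**
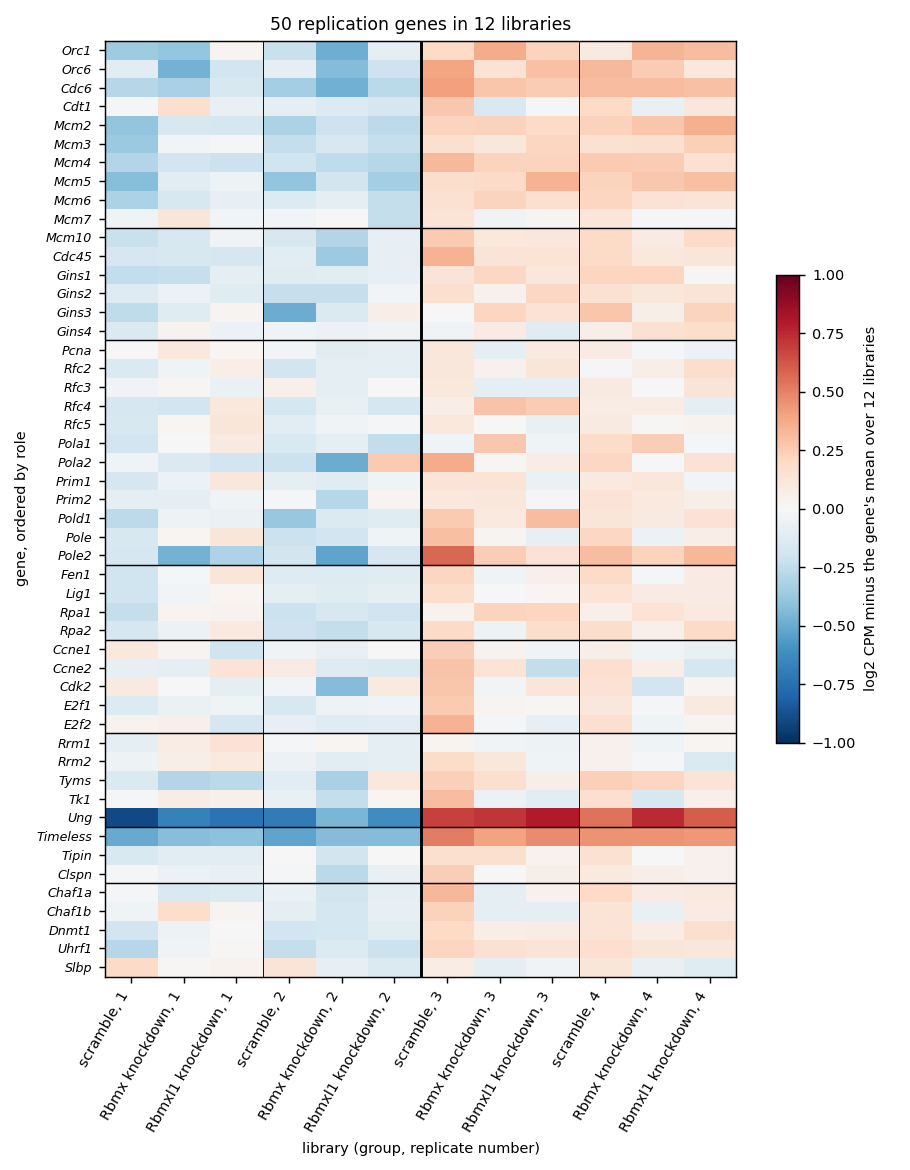
Heat map of the 50 replication genes (rows, by role) in 12 libraries (columns, by replicate number and group), as log2 CPM minus the mean of the gene over the 12 libraries. The thick line divides replicates 1 and 2 from replicates 3 and 4, and most rows are blue to its left and red to its right, with Ung and Timeless the strongest.

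**Figure D3:**
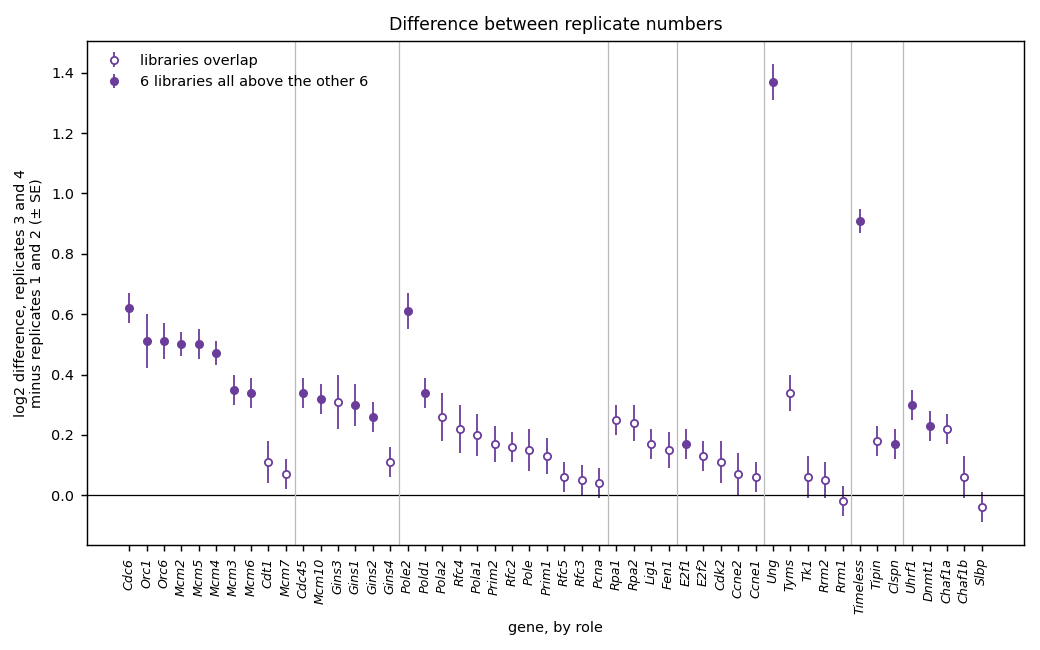
Log2 difference between replicates 3 and 4 and replicates 1 and 2 (± SE, group-adjusted) for each gene by role. Filled points are the 20 genes whose 6 libraries of replicates 3 and 4 all lie above the other 6, and they gather among the licensing and helicase activation genes.

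The separation was then counted within each group. With 2 libraries on each side, 48 genes were wholly higher in replicates 3 and 4 of scramble, 35 in Rbmx knockdown and 29 in Rbmxl1 knockdown, where 31%, 36.9% and 30.1% of all tested genes were. Wholly lower were 1, 2 and 1 genes, against 32.4%, 30.4% and 28.2%. The medians were 0.32, 0.21 and 0.14. An interaction term for a difference between groups called 0 of 50 genes in either knockdown (edgeR's quasi-likelihood test, lowest adjusted p = 0.296 and 0.261). It called 0 of all 17569 genes as well, so this 0 does not show that the groups were alike. Summed over the 50 genes, the level was 4539, 4586, 5902 and 5695 CPM in scramble replicates 1 to 4, 4973, 4566, 5359 and 5374 CPM in Rbmx knockdown, and 4990, 4636, 5415 and 5525 CPM in Rbmxl1 knockdown. Every sum of replicates 3 and 4 exceeded every sum of replicates 1 and 2, and the scramble libraries held both the lowest and the highest.

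Other measures moved with the replicate number too. The share of reads outside features was 26.3 to 29.2% in replicates 1 and 2 and 30.8 to 32.2% in replicates 3 and 4. The 14 neuroblastoma and neuronal markers summed to 2400 to 2720 CPM in replicates 1 and 2 and to 1950 to 2190 CPM in replicates 3 and 4. Of 13 tested, 3 were separated and lower in replicates 3 and 4 (Isl1, Chgb and Stmn2), 0 were separated and higher, and 10 overlapped, where 10.6% of all genes were wholly lower and 9.4% wholly higher. Of the 2 tested fibroblast markers, Pdgfra was lower without overlap and Pdgfrb overlapped. The part of these measures in the replication gene difference was not tested. Of 31 replication genes whose exons overlap no exon of another gene, 14 were separated and all 14 were higher.

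A list of 53 further genes of the pathway, of which 52 were tested, was also written with earlier results of these data known, so its values are no independent repeat of the pattern. Of these, 17 were separated (32.7%, against 9.4% of all genes), all higher in replicates 3 and 4, with a median difference of 0.23 (0.03 over all genes). The helicase Recql4 (0.99 ± 0.06) and Mtbp (0.71 ± 0.06), both needed for origin firing, lay at 69.3 to 95.9 against 148 to 194 CPM and at 41.5 to 55.2 against 72.9 to 82.1 CPM. Regulators of the G1/S step were mixed. Of 23 tested, 6 were wholly higher (26.1%, against 9.4% of all genes), among them cyclin D1, Ccnd1 (0.44 ± 0.04), and 3 wholly lower (13%, near the 10.6% of all genes), the Cdk inhibitors Cdkn1b (−0.32 ± 0.05), Cdkn2c (−0.25) and Cdkn2d (−0.57 ± 0.09). Of 20 mitotic genes 1 was separated (5%, against 9.4%), Aurkb, which was higher (0.16), and the median of the list was −0.03.

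Knockdown of Rbmx was compared with scramble next. With the replicate number as a block, 3 of 50 genes (6%) passed the test, all lower: Cdk2, Orc6 and Slbp. Over all genes tested, 8.35% passed and 4.19% were lower, and nothing is read from the count, because the set was chosen with this contrast known. The log2 fold changes of the 50 genes ran from −0.28 to 0.17 with a median of −0.04, against 0 over all genes, and 31 were negative. At an unadjusted p under 0.05 there were 13 genes, 10 lower and 3 higher, beside 4366 of all genes (24.9%), of which 2199 were lower. DESeq2 with the same block called 5 genes, all lower, and 11.5% of all genes. That share counts 3747 genes to which DESeq2 gave no adjusted p as not called. Without the block, 0 of 50 genes passed edgeR's quasi-likelihood test (2 at an unadjusted p under 0.05, lowest adjusted p = 0.315). Of all genes 1 did, with 10.9% at an unadjusted p under 0.05.

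Cdk2, the kinase that with cyclin E starts S phase, had 55.5, 51.4, 63.4 and 57.8 CPM in scramble replicates 1 to 4 and 52.5, 38.6, 51.2 and 45.8 CPM in Rbmx knockdown. Each knockdown library lay below the scramble library of its number, while the groups overlapped. The log2 fold change was −0.28 ± 0.08 (adjusted p = 0.0367). Orc6 had 28.9, 29.4, 41.1 and 39.3 CPM in scramble and 22.6, 23.2, 34.6 and 37.4 CPM in knockdown. It too was lower in 4 of 4 numbered pairs with overlapping groups, since the replicate difference exceeded the change of −0.25 ± 0.07 (adjusted p = 0.0408).

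Slbp, which binds the stem-loop of histone mRNAs, behaved otherwise. It had 57.8, 55.5, 53.5 and 55.3 CPM in scramble, 51.1, 47.9, 47.4 and 48.2 CPM in Rbmx knockdown and 52.0, 45.8, 49.5 and 46.7 CPM in Rbmxl1 knockdown. All 8 knockdown libraries lay below all 4 scramble libraries. The log2 fold change was −0.19 ± 0.06 in Rbmx knockdown (adjusted p = 0.0433) and −0.20 ± 0.06 in Rbmxl1 knockdown (adjusted p = 0.0541), which share the scramble libraries. Without the block the adjusted p was 0.315 and 0.444, and without the filter on low counts it was 0.126 in Rbmx knockdown, so either choice ends the call.

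All 3 of these genes overlap exons of a gene on the opposite strand, and whether strand was used in counting is not given in the sources used here. Vps35, which overlaps Orc6, lay at 145 to 191 CPM with a change of −0.09 ± 0.06 (adjusted p = 0.434), Pmel, which overlaps Cdk2, stayed at or below 1.01 CPM, and Gm10459, which overlaps Slbp, did not pass the filter. Among the 31 genes without exon overlap, 0 passed in Rbmx knockdown, where 8.35% of all genes did. At an unadjusted p under 0.05 there were 5 of the 31, beside 24.9% of all genes. Whether exon overlap bears on the 3 calls was not tested. The count also rested on single libraries. It was 0 without replicate 2 or replicate 3, without any 1 of the 4 scramble libraries, or without Rbmx knockdown replicate 2 or 3, where 0.831% to 6% of all genes passed. It was 1 without replicate 1 or 4, Rbmx knockdown replicate 1 or 4, or Rbmxl1 knockdown replicate 4, where 2.94% to 6.12% did, and 5 without Rbmxl1 knockdown replicate 2, where 10.7% did. With a replicate number, a scramble library or an Rbmx knockdown library left out, Cdk2 and Orc6 each passed in 2 of 12 cases and Slbp in 0 of 12, although the direction was lower in each of these fits.

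Genes that missed the threshold included Chaf1a, which deposits histones behind the fork, at −0.20 ± 0.06 (adjusted p = 0.052), Pole2 at −0.26 ± 0.08 (adjusted p = 0.0534) and Pola2, the second subunit of polymerase alpha, at −0.24 ± 0.10 (adjusted p = 0.172). Without the filter on low counts Pole2 and Pola2 passed (adjusted p = 0.0342 each) and Slbp did not (adjusted p = 0.126), so that 4 of 50 genes passed, beside 6.56% of all genes. By matched number, 11 genes were lower in 4 of 4 pairs, 5 were higher in 4 of 4 and 34 were mixed. Over all genes, 16.8% were lower and 17.7% higher in every pair. Among the 5 were Mcm2, Mcm5, Rpa1, Pola1 and Ung, each with positive changes between 0.10 and 0.17 that did not pass. The 5 G1/S control genes all had negative values, from −0.28 to −0.05.

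After Rbmxl1 knockdown, 0 of 50 replication genes passed edgeR's quasi-likelihood test, against 4.46% of all genes. At an unadjusted p under 0.05 there were 8, of which 5 were lower, beside 3479 of all genes (19.8%). DESeq2 called 1 gene, Slbp (adjusted p = 0.0227), and 7.28% of all genes, with 4428 genes that had no adjusted p counted as not called. Without replicate 1, or without Rbmxl1 knockdown replicate 1, edgeR called 1 gene, Ccne2 (−0.37 and −0.35), and 1.06% and 1.29% of all genes. Without the block the count was also 0, with 3 at an unadjusted p under 0.05, beside 8.46% of all genes, and a lowest adjusted p of 0.444. The changes ran from −0.22 to 0.22, with 25 positive and 25 negative and a median of 0, against 0.01 over all genes. The ends of the range were Ccne2, a cyclin E, at −0.22 ± 0.09 (adjusted p = 0.197) and Gins3 at 0.22 ± 0.11 (adjusted p = 0.286). In 6 genes all 4 pairs were lower and in 7 all 4 were higher, where 12.6% and 13.4% of all genes were. Compared directly, Rbmx and Rbmxl1 knockdown differed in 0 of 50 genes and in 0.0114% of all genes (0.0569% with DESeq2 and 0.271% without the filter on low counts, with 0 of the 50 in each), with 3 replication genes (6%) at an unadjusted p under 0.05, all lower in Rbmx knockdown, beside 5.7% of all genes, 3.56% lower. The largest of these direct differences was that of Pola2, −0.24 ± 0.11 (adjusted p = 0.862).

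**Figure D4:**
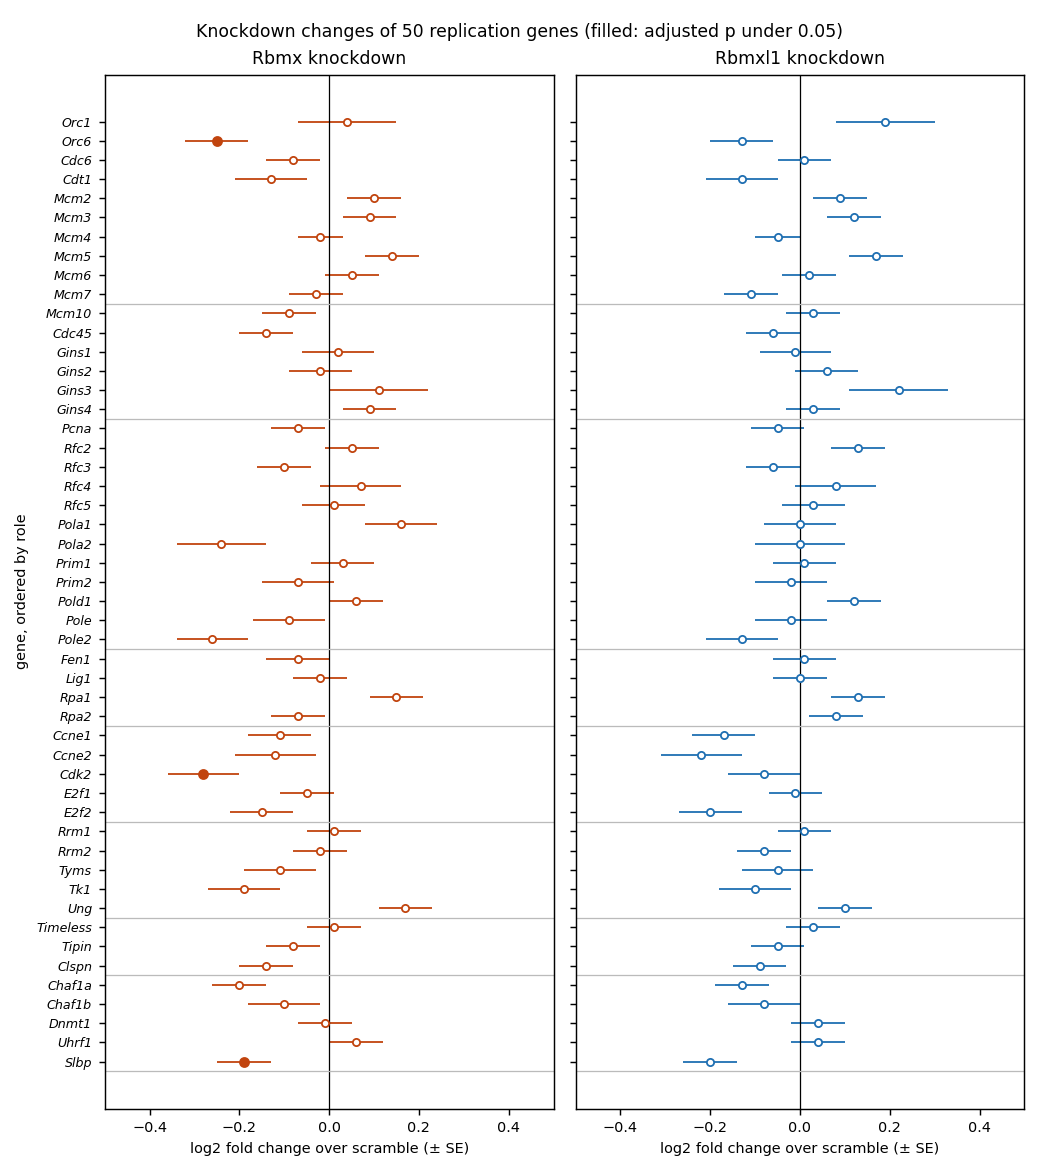
Log2 fold change over scramble (± SE) of the 50 replication genes, by role, in Rbmx knockdown (left) and Rbmxl1 knockdown (right), from the fit with the replicate block. Filled points have an adjusted p under 0.05: Orc6, Cdk2 and Slbp on the left and 0 genes on the right.

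**Figure D5:**
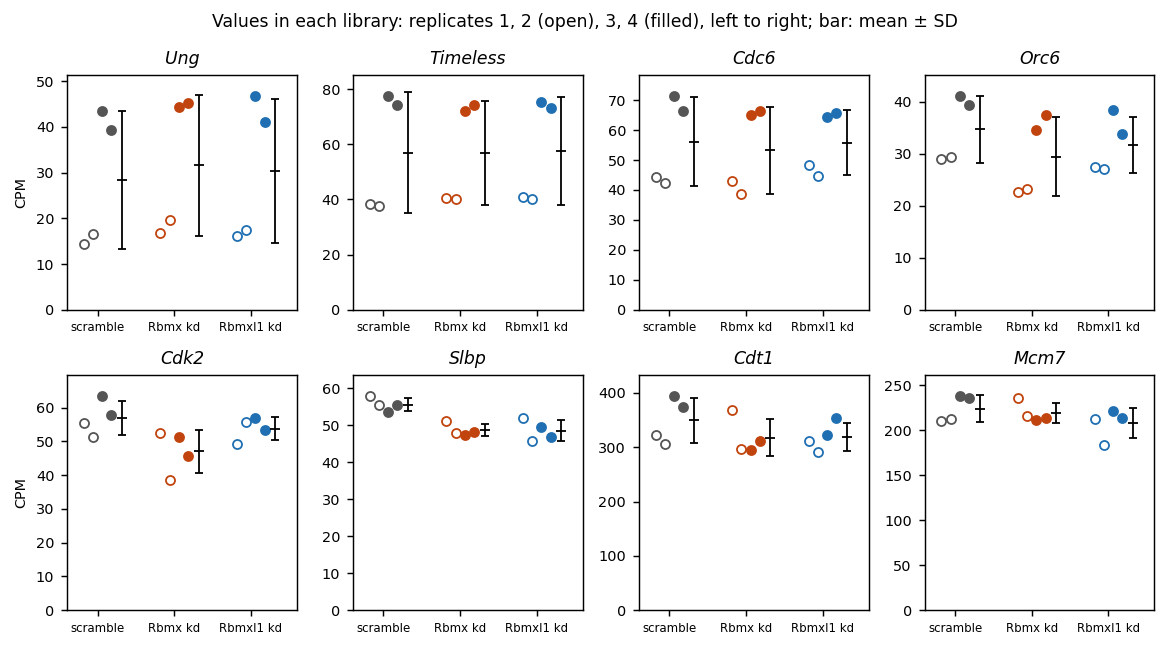
CPM of 8 replication genes in each library, with replicates 1 and 2 as open and 3 and 4 as filled points, left to right within each group, and the mean ± SD beside them (n = 4). Ung, Timeless, Cdc6 and Orc6 split by replicate number in all groups, while Slbp is lower in every knockdown library than in every scramble library.

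The small medians over all 4 numbers joined opposite values in the 2 sets of replicates. Within replicates 1 and 2, the median change was 0.05 after Rbmx knockdown, with 31 genes positive, and 0.11 after Rbmxl1 knockdown, with 38 positive. Within replicates 3 and 4 it was −0.10, with 40 genes negative, and −0.12, with 38 negative. The 0.05 for Rbmx rested on replicate 1. There the median log2 deviation from each gene's mean over 12 libraries was −0.06 in Rbmx knockdown and −0.16 in scramble. In replicate 2 that deviation was −0.16 and −0.13, the other way. Between the 4 numbered pairs, the median change had an SD of 0.1 for Rbmx and 0.112 for Rbmxl1. Within replicates 1 and 2, 0 replication genes passed in either knockdown, where 0.023% and 0.172% of all genes did. At an unadjusted p under 0.05 there were 8 and 6 of 50, beside 18.5% and 13.4% of all genes. Within replicates 3 and 4, 9 genes passed after Rbmx knockdown and 4 after Rbmxl1 knockdown, all lower, against 10.1% and 5.53% of all genes. These fits have 2 libraries in each group.

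The 9 genes were Cdt1, Pola2, Pole, Fen1, Cdk2, E2f2, Tk1, Chaf1a and Chaf1b, and the 4 were Pole, Ccne2, E2f2 and Tk1. Within replicates 1 and 2 the changes of the 9 ran from −0.23 to 0.11. Cdt1 had 323, 306, 394 and 375 CPM in scramble and 368, 297, 294 and 311 CPM in Rbmx knockdown. For Cdt1 scramble was higher in replicates 3 and 4 than in 1 and 2, and the knockdown was not, and the change was −0.36 ± 0.07 within replicates 3 and 4 (adjusted p = 0.00244) and 0.08 within replicates 1 and 2. Cdk2 was at −0.23 within replicates 1 and 2 and −0.33 within 3 and 4, Pola2 at −0.18 and −0.29, and Chaf1a at −0.12 and −0.27. Pole, the catalytic subunit of polymerase epsilon, had 170, 164, 234 and 219 CPM in scramble, 193, 167, 194 and 183 CPM in Rbmx knockdown and 207, 185, 180 and 199 CPM in Rbmxl1 knockdown. Its change within replicates 3 and 4 was −0.27 ± 0.07 in both (adjusted p = 0.0175 and 0.0313). Ccne2 was at 68.3 and 63.1 CPM in scramble replicates 3 and 4 and at 47.4 and 49.6 CPM in those of Rbmxl1 knockdown (−0.45 ± 0.07, adjusted p = 0.00173).

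Whether a knockdown change differed between the sets of replicates was tested with an interaction term over all genes. It called 0 replication genes and 0 of 17569 genes in either knockdown. The lowest adjusted p among the replication genes was 0.296 for Rbmx and 0.261 for Rbmxl1 knockdown. At an unadjusted p under 0.05 there were 9 replication genes for Rbmx and 8 for Rbmxl1, all with a more negative change in replicates 3 and 4, beside 11.1% and 8.36% of all genes. The median interaction was −0.10 for Rbmx, with 38 genes negative, and −0.14 for Rbmxl1, with 49 negative, against 0.03 and 0.02 over all genes, of which 45.1% and 47.5% were negative. Single genes included Cdt1 (−0.42 ± 0.11) for Rbmx and Pole (−0.37 ± 0.11 and −0.49 ± 0.11) for both. The values for Rbmx and Rbmxl1 share their scramble libraries and are not independent of each other. The set was chosen with the knockdown changes and the replicate difference in these libraries known. The counts of negative values are therefore a description and support nothing.

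Of the 52 tested replication genes outside the set, 9 passed after Rbmx knockdown (17.3%, against 8.35% of all genes), 7 lower and 2 higher. This list too was written with results known, and its share was not tested against that of all genes or of the 50. Lower were Cdc7, the kinase that fires origins, at −0.45 ± 0.09 (adjusted p = 0.00952, 43.4 ± 11.9 CPM in scramble and 31.5 ± 7.33 in knockdown, SD, n = 4), Tonsl (−0.44), which binds new histones, Donson (−0.39), a fork and origin factor, Topbp1 (−0.30), an activator of origins and of the checkpoint, the nuclease Dna2 (−0.29), the E2F partner Tfdp1 (−0.29) and the clamp unloader Atad5 (−0.26). Higher were Pold2, a subunit of polymerase delta, at 0.29 ± 0.05 and the helicase Mcm8 at 0.26 ± 0.08. After Rbmxl1 knockdown 5 of 52 passed (9.62%, against 4.46% of all genes): Mcm8 (0.34), Pold2 (0.26), the origin recognition subunit Orc3 (0.24) and the deaminase Dctd (0.23) were higher, and Tonsl (−0.40) was lower. Tonsl and Donson overlap exons of other genes. All 4 numbered pairs had the same direction in each of them, and 0 of 52 passed without the block in either knockdown. Without replicate 3 the counts were 0 in both, where 0.831% and 0.609% of all genes passed. The Rbmx count was 2 without scramble replicate 3 (1.57% of all genes), 3 without Rbmx knockdown replicate 3 (2.43%), 4 without Rbmx knockdown replicate 1 or 2 (4.69% and 2.83%), and 5 without replicate 1, replicate 4 or scramble replicate 1 (2.87% to 4.16%). The Rbmxl1 count was 0 without replicate 1, replicate 4, scramble replicate 1 or 3, or Rbmxl1 knockdown replicate 1 or 4 (0.57% to 1.79% of all genes), 1 without scramble replicate 2 or 4 (1.09% and 1.67%), and 3 without Rbmxl1 knockdown replicate 3 (1.91%). With a replicate number, a scramble library or a library of that knockdown left out, Cdc7 and Pold2 each passed in 11 of 12 fits, Tonsl and Topbp1 in 9, Donson in 4 and Dna2 in 3 after Rbmx knockdown, and Tfdp1, Atad5 and Mcm8 were not followed singly there. After Rbmxl1 knockdown Tonsl passed in 4 of 12, Mcm8 in 3, Pold2 in 2, Dctd in 1 and Orc3 in 0.

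Of 23 tested regulators of the G1/S step, 6 passed after Rbmx knockdown (26.1%, against 8.35% of all genes) and 4 after Rbmxl1 knockdown (17.4%, against 4.46%), from a list likewise written with results known. Mycn, the driver oncogene of neuroblastoma, rose from 11.4 ± 0.896 CPM in scramble to 17.1 ± 3.69 CPM (log2 0.56 ± 0.12, adjusted p = 0.0126) and 18.4 ± 4.44 CPM (0.66 ± 0.12, adjusted p = 0.00844; SD, n = 4). Cyclin D3, Ccnd3, rose by 0.24 ± 0.06 and 0.43 ± 0.06. The repressor E2f7 fell by 0.32 and 0.31 and Fbxo5, an inhibitor of the anaphase-promoting complex, by 0.24 and 0.26 on the log2 scale. The repressors E2f6 and E2f8 fell by 0.29 each after Rbmx knockdown. None of these passed without the block. Mycn did not pass without replicate 3 in either knockdown, nor without scramble or Rbmx knockdown replicate 3 in the Rbmx contrast, and the other regulators missed the threshold in part of the fits with a library left out, Ccnd3 after Rbmxl1 knockdown excepted. Of 20 mitotic genes, 2 passed after Rbmx knockdown (10%, against 8.35% of all genes): Plk1 (0.39 ± 0.11, adjusted p = 0.0386) and Ccnb2 (0.30 ± 0.09, adjusted p = 0.044), both higher. Without the block their adjusted p was 0.325 and 0.391. Their changes were 0.21 and 0.08 within replicates 1 and 2 and 0.59 and 0.53 within replicates 3 and 4, and the list median was 0.14 over all replicates, 0.01 within the first set and 0.31 within the second. In the mitotic list 0 genes passed after Rbmxl1 knockdown (1 at an unadjusted p under 0.05, median 0.06, with −0.07 within replicates 1 and 2 and 0.17 within replicates 3 and 4). Fitted within replicates 3 and 4 alone, with 2 libraries a group, 13 of the 20 mitotic genes passed after Rbmx knockdown, against 10.1% of all genes, and 6 after Rbmxl1 knockdown, against 5.53%, all higher. Within replicates 1 and 2, 0 mitotic genes passed in either knockdown, against 0.023% and 0.172% of all genes. Both knockdowns share the scramble libraries of each set.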

How the data were processed

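RNA-seq was deposited for 12 libraries, 4 per group. The authors deposited raw counts, 1 whole number per Ensembl gene and library, without normalization. The submitters' processing notes name cutadapt, STAR 2.5.3a, HTSeq 0.6.1p1, R 3.3.2, DESeq2 1.16.1 and the build mm10. The strand setting and the annotation used are not given in the sources used here. Rows that name no gene held 52.3 to 57.4% of each file's reads and were left out. They include reads with several alignments, so genes with near-identical copies can be undercounted. Of 55401 identifiers, 55141 were in GENCODE M21 (GRCm38), which gave names, positions and exon lengths. No 2 libraries were identical.

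The counts went into edgeR 4.0.16 (R 4.3.3): filterByExpr (minimum count 10, minimum total 15), TMM scaling, and quasi-likelihood F-tests over 17569 genes in all 12 libraries, with group and replicate number as terms. Benjamini-Hochberg adjusted p under 0.05 was the threshold, and SE was derived from the log2 fold change and F. The definition of the gene set names the replicate block, and pairing was checked in the values: deviations from group means (log2 CPM, prior count 2) correlated at 0.20 to 0.52 in the 12 same-number pairs, 0.10 to 0.43 in 12 pairs of the same set, and −0.57 to −0.13 in 24 pairs across sets (1 and 2 against 3 and 4). The pairing comes from the values alone. The labels call the libraries biological replicates of 1 cell line, without saying what was repeated. The p-values measure only the spread between these libraries. Replicate sets were compared by a fit with group and set, without p. Alternatives were no block, RLE size factors, DESeq2 1.42.0, no filter, removal of a GC trend, the sets apart, and each replicate number or library left out. Counting depth was 43.1 to 52.2 M reads in genes.

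The members and lists were chosen with earlier results of these data known. The rule for naming genes took the members called in a knockdown, filled up to 8 by absolute change. It also took the 6 with the largest difference between replicate sets and at least 1 per role. From the other replication genes and the G1/S regulators it took up to 6 called genes per knockdown. Values in every library are printed for only part of the named genes. Further genes, such as Stmn2, Isl1, Chgb, Atad5, Tfdp1, Mcm8 in Rbmx knockdown, Cdt1, Pole, Plk1, Ccnb2, Aurkb, Recql4, Mtbp, Ccnd1 and the Cdk inhibitors, were named after their values were seen. Promoters came from RefSeq (GRCm38.p6).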

Additional observations from a re-analysis of the deposited data

How the results depend on the processing

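Most calls among the 50 replication genes depended on the fit. After Rbmx knockdown, 3 genes passed in the reported fit, 0 without the replicate block, 5 with DESeq2, 0 within replicates 1 and 2 and 9 within replicates 3 and 4. Leaving out a replicate number or a library gave 0 to 5. After Rbmxl1 knockdown, 0 passed in the reported fit, 1 with DESeq2, 4 within replicates 3 and 4 and 0 to 1 with a replicate or library left out. The direct comparison gave 0 throughout. The cause of these shifts was not tested, and the fits within a set have fewer samples. The medians with a replicate or library left out were −0.09 to 0 for Rbmx and −0.06 to 0.04 for Rbmxl1. Within replicates 1 and 2 they were 0.05 and 0.11, and within replicates 3 and 4 −0.10 and −0.12. Of the other replication genes, 9 and 5 passed, 0 and 0 without the block, 0 and 0 within replicates 1 and 2, 10 (3 higher, 7 lower) and 6 (1 higher, 5 lower) within replicates 3 and 4, and 0 to 11 and 0 to 6 with a replicate or library left out. The 20 genes separated by replicate set (all higher in replicates 3 and 4) became 49 within scramble (48 higher, 1 lower), 37 within Rbmx knockdown (35 higher, 2 lower), 30 within Rbmxl1 knockdown (29 higher, 1 lower) and 21 to 27, all higher, without 1 replicate number, where fewer libraries have to be apart and 12.2% to 15.8% of all genes were wholly higher. RLE size factors and no filter on low counts moved these counts by less than 1.5 times, although without the filter Pola2 and Pole2 passed in Rbmx knockdown (adjusted p = 0.0342 each) and Slbp did not (0.126). With the GC trend removed, the median difference between sets was 0.18. Over all genes, calls in Rbmx knockdown with a replicate or library left out ranged from 146 without replicate 3 to 1904 without Rbmxl1 knockdown replicate 2, beside 1 without the block, 4 within replicates 1 and 2, 1818 within replicates 3 and 4 and 2013 with DESeq2. In Rbmxl1 knockdown they ranged from 100 without replicate 4 to 1032 without Rbmxl1 knockdown replicate 2, beside 1 without the block, 30 within replicates 1 and 2, 992 within replicates 3 and 4 and 1279 with DESeq2. The alternatives limited to genes without exon overlap and the GC trend of the set difference were chosen after seeing the data.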
